A study of Mus musculus with 94 samples.

Results

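Nascent transcription was compared between embryoid body cells that had lost the cohesin subunit RAD21 for 8 h and cells that had not, on day 7 of differentiation. The comparison rests on 4 of the 94 libraries of the series, chosen by their labels: 1 DMSO and 1 dTAG-13 library for each of 2 mouse embryonic stem cell clones, C4 and G9. Both clones carry RAD21 fused to the FKBP degron, and the labels give the parent line as a Tsix-stop line of CAST/Ei x 129/Sv/Jae background, so that the fusion and the Tsix-stop allele are shared by the control libraries too. The dTAG-13 cells received 500 nM of the degrader and the control cells DMSO. The day 10 RNA-seq libraries of the same clones and the same 8 h treatment, 4 further samples, are used only to set steady-state RNA values beside the nascent ones. The stem cells had been kept on irradiated mouse embryonic fibroblasts before differentiation.

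Cohesin is a ring-shaped complex that holds sister chromatids together and extrudes loops of chromatin until it meets CTCF or is released by WAPL. RAD21 is the subunit that closes the ring, so its degradation opens cohesin on chromosomes. dTAG-13 is a small molecule that brings an FKBP-tagged protein to a ubiquitin ligase. PRO-seq labels the RNA that engaged RNA polymerases are making at harvest, those paused near a promoter included, whereas RNA-seq also counts RNA made before the treatment. Whether the deposited counts cover whole genes or leave out the reads near promoters is not given in the sources used here, so paused and elongating polymerases cannot be told apart in a gene's level. An embryoid body is an aggregate of stem cells that leave pluripotency and pass through states that resemble epiblast, primitive streak and early germ layers.

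The deposited counts per gene summed to 34335989 in the C4 DMSO library, 22781512 in C4 dTAG-13, 14269545 in G9 DMSO and 14947007 in G9 dTAG-13, and levels are given as CPM, counts scaled to a common library total. At these depths 3 counts correspond to between 0.0858 and 0.213 CPM. Rad21 itself was at 168 CPM with DMSO and 191 with dTAG-13 in C4, and at 168 and 182 in G9. Its log2 fold change was 0.16 ± 0.07 (SE), with an edgeR adjusted p of 0.152, and since the degron acts on the protein, this RNA value does not check the loss of RAD21. Of 16496 genes with enough counts to test, 1743 (10.6%) differed between dTAG-13 and DMSO at an adjusted p under 0.05 in edgeR's quasi-likelihood test with clone as a block, 974 of them higher (5.90%) and 769 lower (4.66%). DESeq2 on the same genes called 514, of which 303 were higher and 211 lower, and all 514 were among the edgeR calls. Its default filter on the mean count left many of these genes without an adjusted p, so DESeq2 could not call them. Without the clone block edgeR called 0 genes, with 492 at an unadjusted p under 0.05, and it called 0 when any 1 of the 4 libraries was left out, where the block leaves no residual degree of freedom and was dropped. Each clone is a separate line with 1 library per treatment, so the p-values set a gene's mean change against the spread between the responses of 2 clones. That spread is mostly pooled across genes, with 1 residual and 29.48 prior degrees of freedom. A gene can therefore pass although its clones responded unequally, as Mdm2 did.

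Most called changes were small. The median log2 fold change was 0.50 among the genes that rose and -0.41 among those that fell. A change of at least 2-fold was seen for 116 genes that rose (0.703% of those tested) and 74 that fell (0.449%). The median over all tested genes was -0.0029, and rises and falls are relative to it. Of all tested genes, 67.4% moved in the same direction in both clones. Across the 16496 genes, which are not independent replicates, the log2 ratios of C4 and G9 had Pearson's r of 0.43 and Spearman's rho of 0.45. The share of genes called rose with the level of transcription, from 4.24% in the lowest quartile of mean level to 15.4% in the highest. Among the calls, the median size of the change was 1.14 on the log2 scale in the lowest quartile and 0.32 in the highest, since a small change can pass the test only at a high count.

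**Figure D1:**
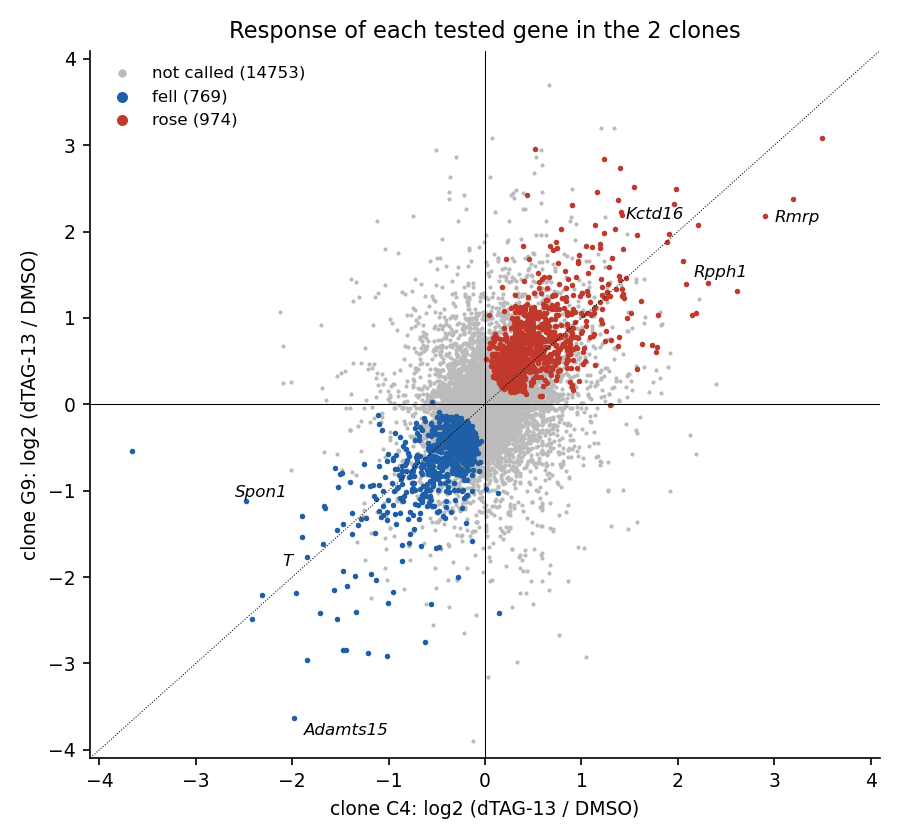
Each point is 1 tested gene, with its log2 ratio of dTAG-13 over DMSO in clone C4 on the x axis and in clone G9 on the y axis, and the dotted line marks equal change. Of the 1743 called genes, 1738 have the same sign in both clones and lie in the upper right or lower left, with Rmrp and Rpph1 far out among the rises and Adamts15 and T among the falls. The test favours genes that moved in the same direction in both clones, so this agreement in sign follows largely from the selection. Over all tested genes 67.4% share the sign.

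Among protein-coding genes whose average log2 CPM reached 2, the largest fall was that of Adamts15 on chromosome 9, which encodes a secreted metalloprotease that cuts matrix proteoglycans. It dropped from 14.8 to 3.66 CPM in C4 and from 41.9 to 3.30 in G9, a log2 fold change of -2.78 ± 0.22 with an edgeR adjusted p of 1.06e-10. Both dTAG-13 libraries lay below both DMSO libraries. Adamts8, the gene next to it and a member of the same family, dropped from 7.15 to 1.77 CPM in C4 and from 10.9 to 2.33 in G9, by 2.11 on the log2 scale. Adamts9 on chromosome 6 fell by 1.62. The family did not move as a whole: of 19 Adamts genes tested, 3 fell and 3 rose (Adamts5, Adamts12 and Adamts1), with a median log2 fold change of -0.13. Over all tested genes, 4.66% fell and 5.90% rose. DESeq2 called 2 of the 19 lower and 1 higher. Tmem200a went from 26.1 to 7.20 CPM in C4 and from 83.8 to 10.7 in G9, and its log2 fold change was -2.42 ± 0.16 with an adjusted p of 2.40e-12.

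Cyp26a1, whose product breaks down retinoic acid, was at 2.72 CPM with DMSO and 0.474 with dTAG-13 in C4, and at 30.8 and 6.59 in G9. The DMSO level differed more between the clones than either clone's response, so that the groups overlapped, but it fell in both, and the log2 fold change was -2.29 ± 0.22 (adjusted p = 6.35e-09). The same held for Fst, which encodes the activin antagonist follistatin, with 9.09 and 2.71 CPM in C4 and 68.3 and 12.7 in G9 (log2 fold change -2.17). Apln, the ligand of the apelin receptor, fell by 2.10 on the log2 scale, and the receptor gene Aplnr, singled out after its values were seen, fell by 2.71 at low levels of 0.0431 to 8.09 CPM, the lowest of them below the level of 3 counts. Spon1, a matrix protein gene, was higher in C4 than in G9 and dropped from 121 to 32.4 CPM in the first and from 21.5 to 8.72 in the second (log2 fold change -1.70). Magel2, which lies in the Prader-Willi domain and is transcribed from the paternal copy, behaved almost identically in the clones, with 28.1 and 8.70 CPM in C4 and 26.8 and 8.66 in G9. Its log2 fold change was -1.66 ± 0.15 with an adjusted p of 6.61e-10. The other genes among the 15 largest falls were Thsd7a, Ryr2 (the cardiac calcium release channel), Lypd6, Mzb1 and Prlr (the prolactin receptor), at log2 fold changes between -1.84 and -1.47.

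**Figure D2:**
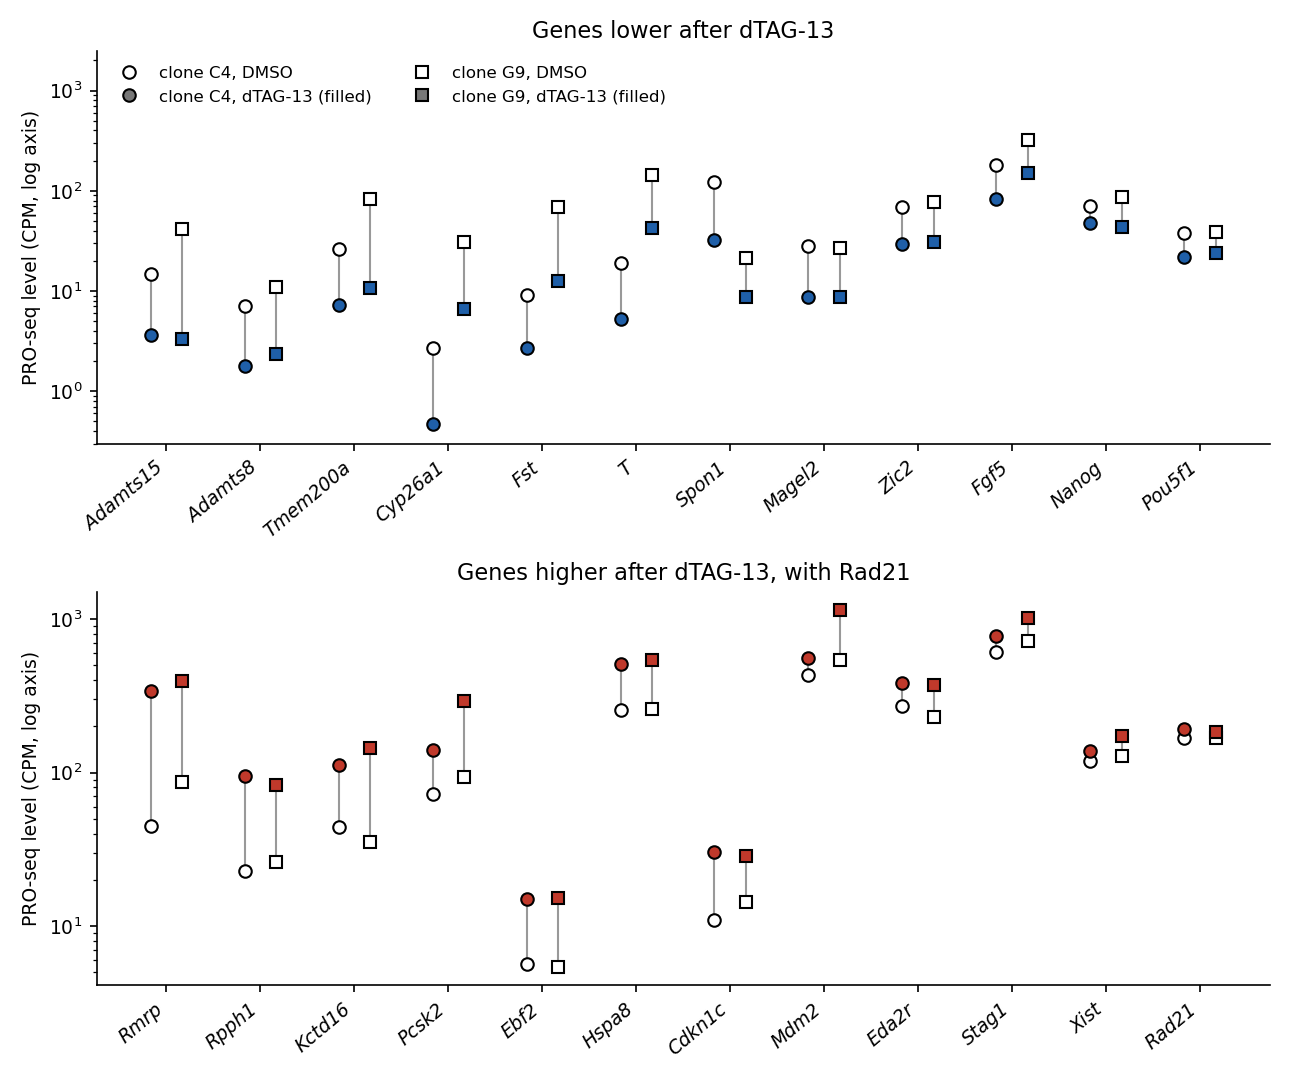
Each pair of joined points gives a gene's PRO-seq level in CPM, on a log axis, with DMSO (open) and dTAG-13 (filled) in clone C4 (circles) and clone G9 (squares). For the 12 genes drawn first (Adamts15 to Pou5f1) every filled point lies below its open partner, and for the others above it; Rad21, at 168 to 191 CPM, shows the size of a difference that did not pass the test.

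Part of the genes of the pluripotent and primed epiblast states fell. Of 26 pluripotency regulators tested, 12 fell and 0 rose, with a median log2 fold change of -0.26, where 4.66% of all genes fell. DESeq2 called 5 of them. Sox2 was at 49.8 and 33.8 CPM in C4 (DMSO and dTAG-13) and at 42.6 and 19.8 in G9, and its log2 fold change was -0.80 ± 0.12 (edgeR adjusted p = 1.32e-05). Nanog went from 70.5 to 47.5 CPM in C4 and from 86.2 to 43.3 in G9 (log2 fold change -0.77), and Pou5f1, which encodes OCT4, from 38.3 to 21.6 and from 38.9 to 24.2 (log2 fold change -0.76). For all 3 factors both dTAG-13 libraries lay below both DMSO libraries. Sall4, a zinc finger partner of the same network, fell by 0.39. Of 11 primed epiblast genes, 5 fell and 0 rose with either tool, with a median of -0.34. They were Zic2 (log2 fold change -1.27), Fgf5 (-1.12), the de novo DNA methyltransferase gene Dnmt3b (-0.78), Pou3f1 (-0.70) and Otx2 (-0.51). Fgf5, a ligand that marks the primed epiblast, dropped from 181 to 82.5 CPM in C4 and from 321 to 150 in G9.

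Regulators of the primitive streak had the lowest median of any list. Of 18 streak and mesoderm regulators tested, 7 fell and 0 rose, where 4.66% of all genes fell, and the median log2 fold change was -0.52. DESeq2 called 3 of them. T, the Brachyury gene that defines the streak, was at 19.2 CPM with DMSO and 5.26 with dTAG-13 in C4, and at 145 and 42.5 in G9. Its log2 fold change was -1.81 ± 0.11 with an adjusted p of 1.99e-13. Eomes, a T-box factor of the streak and the endoderm, went from 22.2 to 12.2 CPM in C4 and from 84.3 to 47.4 in G9 (log2 fold change -0.85). G9 transcribed both genes more than C4 in either condition, so the groups overlapped although both genes fell in each clone. Lhx1 showed less agreement: it was at 3.63 and 2.97 CPM in C4 and at 47.7 and 11.9 in G9. Tcf15, which marks somite precursors, fell by 0.95. Kdr, a receptor of endothelial precursors, fell by 1.04. Of the 15 endothelial and blood genes tested, Kdr was the only 1 that fell. In that list 1 gene rose, and the median log2 fold change was 0.106. Foxa2, an endoderm factor, had a log2 fold change of -1.503. Of 18 endoderm genes tested, 2 fell and 0 rose, with a median of 0.085, and DESeq2 called 0. In the retinoic acid list of 15 genes, Cyp26a1 and Dhrs3 fell and Aldh1a1 rose.

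The summed levels of the marker sets put these changes side by side. The 5 pluripotency markers together went from 412 to 299 CPM in C4 and from 253 to 150 in G9, and all 5 passed the test. The 3 primed epiblast markers, which all passed too, went from 547 to 320 CPM and from 651 to 345. The 5 mesoderm markers, of which 3 fell, went from 47.6 to 22.99 CPM in C4 and from 269 to 109 in G9. The neural markers, of which Nes alone fell, summed to 156 and 140 CPM in C4 and to 194 and 171 in G9. Of the 4 endoderm markers, 3 were tested and 2 fell, and the sum was 7.38 and 7.39 CPM in C4 and 49.0 and 26.9 in G9. None of the 5 fibroblast and feeder markers passed the test, and their sum was 16.2 and 16.8 CPM in C4 and 24.4 and 25.9 in G9. In the longer fibroblast and feeder list of 17 tested genes, 3 rose and 1 fell, where 5.90% of all genes rose and 4.66% fell. DESeq2 called 0 of the 17, though not all of them had an adjusted p there. The longer list did not match the 5 markers in G9. Its sum was 449.9 CPM with DMSO and 493.4 with dTAG-13 in C4, and 668.3 and 481.5 in G9, while its median log2 fold change was 0.19. Trophoblast markers summed to between 2.97 and 12.02 CPM, and blood and endothelial markers to between 17.7 and 36.2. No marker was at 0 in all 4 libraries. In bulk samples such as these, fewer cells of a type and less RNA made per cell cannot be told apart.

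**Figure D3:**
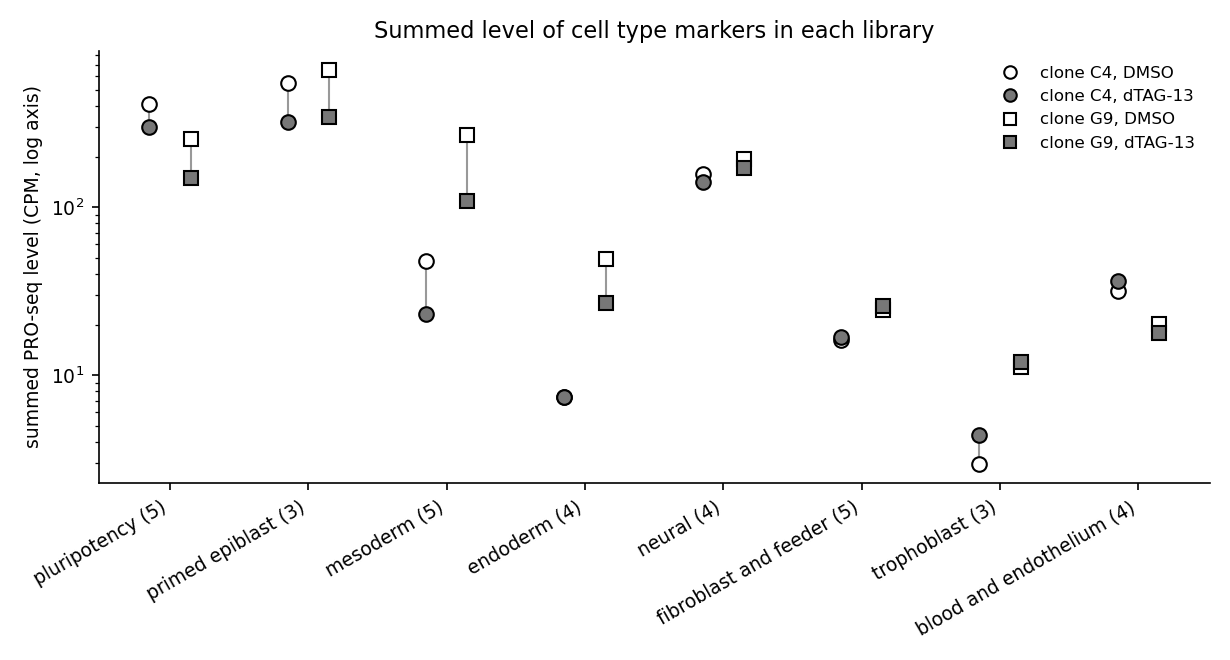
Summed PRO-seq level of each marker set in CPM, on a log axis, in the 4 libraries; open points are DMSO and filled points dTAG-13, and the number of markers is in parentheses. The pluripotency, primed epiblast and mesoderm sums are lower with dTAG-13 in both clones, while the fibroblast sums of 16.2 to 25.9 CPM barely differ within a clone.

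Feedback targets of FGF signalling and immediate early genes fell more often than they rose. FGF signals through the ERK kinase cascade, which switches on immediate early transcription factors within minutes and then the phosphatases and Sprouty proteins that dampen it. Of 16 feedback genes of this pathway, 8 fell and 2 rose (Fosl1 and Etv1), where 4.66% of all genes fell and 5.90% rose. The list's median log2 fold change was -0.23, and DESeq2 called 4 lower and 0 higher. Dusp5, an ERK phosphatase gene, went from 103 to 62.0 CPM in C4 and from 149 to 66.9 in G9. Its log2 fold change was -0.93 ± 0.09 (edgeR adjusted p = 3.44e-09). Spry1 fell by 0.90 and Spry4 by 0.85. Etv5, a transcription factor induced by FGF, was at 504 to 667.5 CPM in the 4 libraries and fell by 0.30. The FGF ligand Fgf8 fell by 1.045, as Fgf5 did by 1.12.

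Of 23 immediate early genes, 11 fell and 1 rose, where 4.66% of all genes fell and 5.90% rose. The list's median was -0.23, and DESeq2 called 4 lower and 0 higher. Egr1, the most transcribed of those named, was at 497 CPM with DMSO and 334 with dTAG-13 in C4, and at 578 and 384 in G9. Both dTAG-13 values lay below both DMSO values, and the log2 fold change was -0.58 ± 0.06 (adjusted p = 2.49e-08). Egr3 fell by 0.55, Ier2 by 0.40, Nr4a1 by 0.40 and Myc by 0.40. The 1 gene that rose was Nr4a3, from 3.92 to 7.11 CPM in C4 and from 5.96 to 12.3 in G9 (log2 fold change 0.95), where DESeq2 gave an adjusted p of 0.0805. Many immediate early genes carry serum response elements, which hold a CArG box: CC, then 6 letters that are each A or T, then GG. RefSeq promoter windows of GRCm38.p6, from 250 bases before to 50 after a gene's start, were at hand for 12493 of the tested genes. A CArG box on either strand was in the window of 1.56% of these genes, of 17 of the 717 that rose (2.37%) and of 25 of the 586 that fell (4.27%). A TATAA stretch was in the windows of 2124 of the 12493 genes, of 21.6% of those that rose and of 18.4% of those that fell. A CTCF-like motif, CCANNAGNNGGC, was in 3.39%, 3.63% and 3.41%, and the EGR site GCGGGGGCG in 5.79%, 7.25% and 7.85%. These shares are descriptions with no test, and the window leaves out elements farther upstream. Among the 19 immediate early genes with a window, Egr2 and Zfp36 had a CArG box.

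The 100 bases before the start of 4 genes that fell and hold a CArG box are shown, 5′ to 3′ on the gene's strand, with the box in capitals. They show how close to the start the boxes lie, and that Dusp5 has 2 in a row, which begin 82 and 72 bases before it. Dusp5 and Egr2 belong to the signalling lists, Zfp36 encodes a protein that destabilises short-lived messenger RNAs, and Cnn2 encodes an actin-binding calponin. Their log2 fold changes were -0.93 for Dusp5, -0.52 for Egr2, -0.41 for Zfp36 and -0.32 for Cnn2. The boxes of the last 3 begin 73, 58 and 56 bases before the start. Egr2 has 5 promoter windows, 4 of them with a box. Of those with a box in the 100 bases, the window whose start lies farthest downstream is shown, so its distance depends on that choice.
Dusp5, chr19:53529045-53529144, plus strand: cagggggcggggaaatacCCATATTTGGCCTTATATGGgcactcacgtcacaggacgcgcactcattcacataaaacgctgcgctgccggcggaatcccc
Egr2, chr10:67537770-67537869, plus strand: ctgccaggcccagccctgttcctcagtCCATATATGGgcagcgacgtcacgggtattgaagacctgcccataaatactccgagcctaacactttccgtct
Zfp36, chr7:28379229-28379328, minus strand: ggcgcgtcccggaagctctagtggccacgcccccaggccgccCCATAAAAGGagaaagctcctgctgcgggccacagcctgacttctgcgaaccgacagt
Cnn2, chr10:79988500-79988599, plus strand: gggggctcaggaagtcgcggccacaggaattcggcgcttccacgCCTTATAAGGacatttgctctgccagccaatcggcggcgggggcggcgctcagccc

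The wider list of YAP and SRF target genes, which includes other genes with such boxes, moved both ways, with 6 of 19 higher and 2 lower. Of all tested genes, 5.90% rose and 4.66% fell. Tpm1, a tropomyosin gene and one of the most transcribed in the table, fell from 1102 to 650 CPM in C4 and from 2038 to 1145 in G9 (log2 fold change -0.80 ± 0.06, adjusted p = 6.73e-12). Tead1, the DNA-binding partner of YAP, rose by 0.29, Crim1 by 0.52 and Tagln2 by 0.37. Among 24 Wnt ligands and targets, 5 fell and 2 rose. Wnt8a, a ligand of the streak, fell by 1.02 and the Wnt target Sp5 by 0.93, while the ligand Wnt6 rose by 0.87 and the R-spondin receptor Lgr4 by 0.36. Other developmental regulators were mixed, with 8 of 56 lower and 6 higher. Sall1 went from 170 to 79.5 CPM in C4 and from 126 to 53.3 in G9 (log2 fold change -1.16), and Ebf2, a factor of neural and mesenchymal lineages, from 5.69 to 15.1 and from 5.39 to 15.3 (log2 fold change 1.45). Among the Hox genes, whose clusters are bound by Polycomb, 17 were tested and Hoxb9 alone rose, by 0.87. That share is near the 5.90% of all genes that rose, and DESeq2 called 0 of the 17, though not all of them had an adjusted p there.

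**Figure D4:**
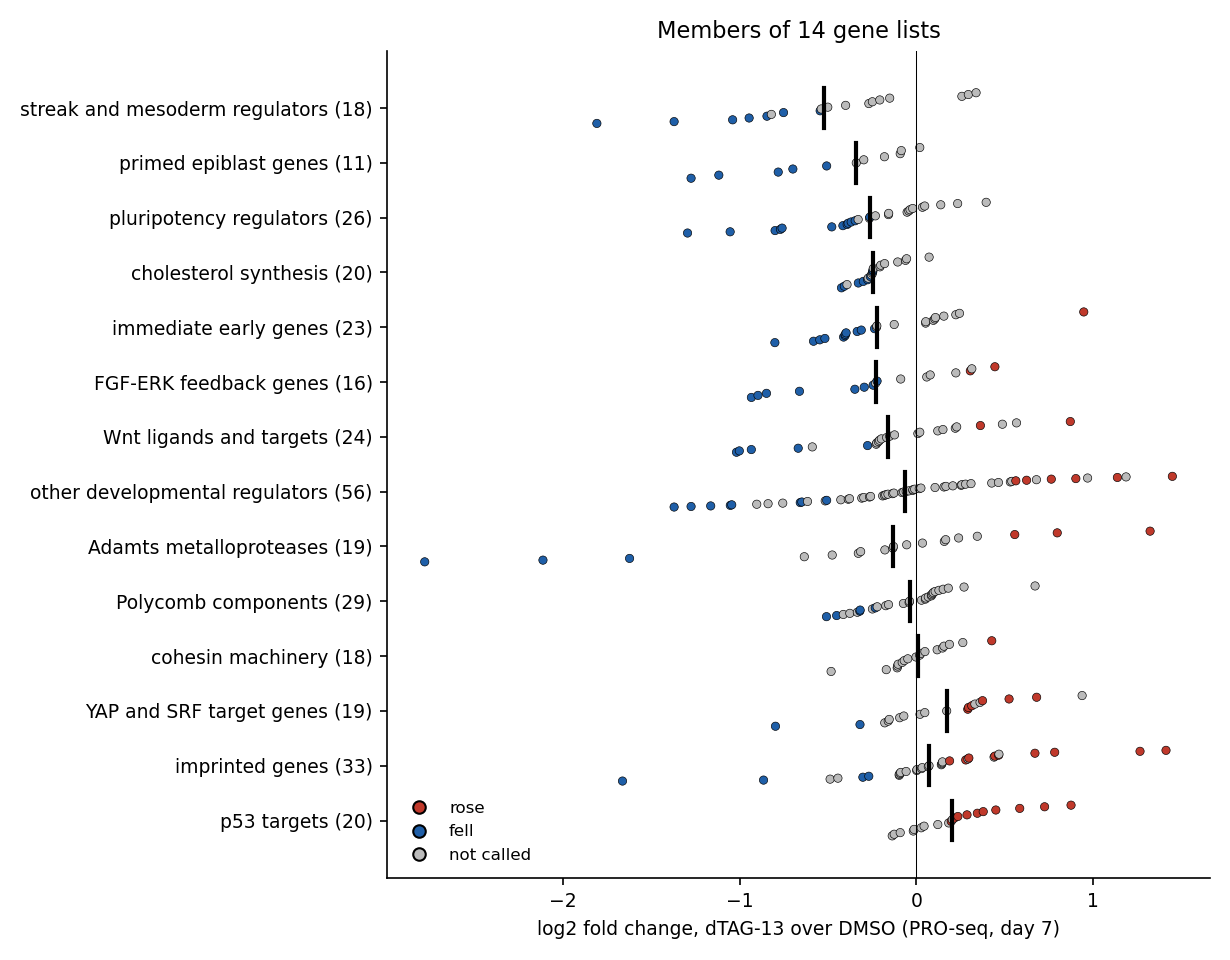
Each point is a tested member of a gene list, placed by its log2 fold change in PRO-seq and coloured by its call; the bar is the list's median and the number of tested members is in parentheses. The 4 lists at the top have medians between -0.52 and -0.25 and no member called higher, and the p53 targets at the bottom have 10 of 20 called higher and none lower.

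Among genes whose average log2 CPM reached 2, the 4 largest rises were those of the short noncoding RNAs Rnu73b, Rmrp, Rnu12 and Rpph1. Some genes below that level rose more. Rmrp on chromosome 4, the RNA of RNase MRP, rose from 45.1 to 337 CPM in C4 and from 86.5 to 392.2 in G9, a log2 fold change of 2.55 ± 0.10 with an edgeR adjusted p of 3.71e-18. Rpph1 on chromosome 14, the RNA of RNase P, rose from 22.96 to 95.6 CPM in C4 and from 26.1 to 82.8 in G9 (log2 fold change 1.88). Both dTAG-13 libraries lay above both DMSO libraries for both RNAs. Rnu12, the U12 RNA of the minor spliceosome, went from 20.2 to 124 CPM and from 28.4 to 70.5, and Rnu73b from 1.57 to 15.2 and from 2.77 to 14.8. Of the 6 tested members of the list of short noncoding RNAs, 5 rose and 0 fell. The vault RNA Vaultrc5 rose by 0.65, whereas the telomerase RNA Terc was at 30.4 and 27.2 CPM in C4 and at 36.8 and 31.7 in G9 and did not pass the test. The ribosomal precursor entry Rn45s, which took between 0.778% and 1.15% of a library's counts, was higher by 0.26. How much of these counts came from finished RNA rather than from RNA being made was not tested. Leaving these entries out left 1745 genes called, 1734 of them shared with the 1743.

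Among protein-coding genes at or above the same average level, the largest rise was that of Kctd16, an auxiliary subunit of GABA-B receptors, from 44.3 to 113 CPM in C4 and from 35.5 to 145 in G9 (log2 fold change 1.66 ± 0.11, adjusted p = 7.53e-13). Pcsk2, a convertase of neuroendocrine prohormones, went from 72.3 to 141 CPM in C4 and from 93.5 to 290 in G9 (log2 fold change 1.29). Gsg1l, an AMPA receptor subunit, rose by 1.40, Stxbp5l by 1.40, the adhesion genes Pcdh10 and Pcdh19 by 1.36 and 1.28, and the proneural factor gene Neurod1 by 0.97. St18, Anxa1, Wnt10a, Psd2 and Ttc23l were also among the 15 largest rises, at log2 fold changes between 1.30 and 1.44. With DMSO these 5 genes were at 1.46 to 12.2 CPM, low levels at which only a large change can pass. Of the 17 neural progenitor and proneural genes, 2 rose (Neurod1 and Tubb3) and 3 fell (Sox2, Msi1 and Nes). Over all tested genes, 5.90% rose and 4.66% fell. DESeq2 called 1 of the 17 higher and 1 lower. Cdkn1c, which encodes the cyclin-dependent kinase inhibitor p57, rose from 11.0 to 30.6 CPM in C4 and from 14.3 to 28.7 in G9 (log2 fold change 1.26). Hspa8, the constitutive HSC70 chaperone, rose from 254 to 508 CPM in C4 and from 260 to 541 in G9 (log2 fold change 1.03 ± 0.06, adjusted p = 3.44e-13). It was the 1 member of 17 heat shock and chaperone genes that rose, and 2 fell, where DESeq2 called 1 higher and 0 lower.

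Of 20 tested targets of p53, the factor that responds to DNA damage and other stress, 10 rose and 0 fell, where 5.90% of all genes rose, with a median log2 fold change of 0.20, and DESeq2 called 4 higher and 0 lower. Mdm2, which encodes the ubiquitin ligase of p53, went from 430 to 560 CPM in C4 and from 542 to 1137 in G9 (log2 fold change 0.73 ± 0.09, edgeR adjusted p = 2.96e-07). The difference was larger in G9 than in C4, and DESeq2 did not call the gene (adjusted p = 0.317). Eda2r, a death-domain receptor, rose evenly from 273 to 380 CPM and from 228 to 370 (log2 fold change 0.58). Perp rose by 0.45 and Ccng1 by 0.38. The integrated stress response list of 23 genes had 2 higher (Ddit3 and Sesn2) and 1 lower (Vldlr). Of 23 interferon response genes, 4 fell, Mx2 by 1.13 and Psmb8 by 0.96 among them, and Ddx58 rose by 0.37. Over all tested genes, 5.90% rose and 4.66% fell. Of the interferon response genes, DESeq2 called 2 lower and 0 higher.

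Of 18 genes of the cohesin machinery tested, Stag1 alone passed, where 10.6% of all genes were called. Stag1 rose from 606 to 772 CPM in C4 and from 717 to 1017 in G9 (log2 fold change 0.43 ± 0.06, edgeR adjusted p = 5.18e-06). It encodes 1 of the alternative SA subunits of the ring, and Stag2, which encodes the other, was higher by 0.19 with an adjusted p of 0.0516. The loader gene Nipbl and Ctcf gave log2 fold changes of 0.12 and -0.07 and did not pass. Among 29 Polycomb components, which make the H3K27 and H2A marks of repressed chromatin, 5 fell and 0 rose in edgeR, where 4.66% of all genes fell, and DESeq2 called only Phc1. Phc1, a subunit of the canonical complex, went from 648 to 488 CPM in C4 and from 423 to 276 in G9 (log2 fold change -0.51), followed by Pcgf5 (-0.45), Cbx6 (-0.32) and Kdm2b (-0.23), and by Pcgf2. Ezh2, the H3K27 methyltransferase gene, was at 0.07 with an adjusted p of 0.586. Of the 12 RNA polymerase II subunits and the 30 mediator subunits tested, edgeR called 0. Of 28 DNA replication genes, Ccne2 and Ccne1 fell, by 0.44 and 0.34, and Rrm2 rose by 0.23, and of 25 mitosis genes Kif23 rose by 0.30.

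The series also concerns X inactivation, in which the noncoding RNA Xist coats 1 X chromosome of female cells and silences it. Xist was at 119.1 and 138.7 CPM in C4 (DMSO and dTAG-13) and at 128 and 174 in G9, and its log2 fold change was 0.33 ± 0.07 with an edgeR adjusted p of 0.00269, while DESeq2 gave an adjusted p of 0.063. Tsix, its antisense partner, was at 0.06 with an adjusted p of 0.621. Whether the counting used strand is not given in the sources used here, and without it reads from the 2 genes cannot be told apart where they overlap. The activator genes Jpx and Rlim did not pass. Of 546 X-linked genes without Xist and Tsix, 42 rose (7.69%) and 16 fell (2.93%), with a median log2 fold change of 0.04. Of the 15948 genes tested elsewhere, 5.84% rose and 4.72% fell, with a median of -0.0037. Among the autosomes the share that rose ranged from 3.69% on chromosome 11 to 8.51% on chromosome 10, so the X chromosome's share lay within that range, while its share that fell was below the lowest autosomal share, 3.44% on chromosome 13. Of 33 imprinted genes, 9 rose and 4 fell in edgeR, where 5.90% of all genes rose and 4.66% fell. DESeq2 called only 2 of the 33 higher and 1 lower. Magel2 and Peg3 (log2 fold change -0.87) fell most and Cdkn1c and Sgce (0.78) were among those that rose.

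Changed genes lay next to each other more often than the background share of calls. For 16434 tested genes, the nearest tested gene that does not overlap it was taken from the RefSeq gene order of GRCm38.p6. Of 768 genes that fell, 81 (10.5%) had such a neighbour that also fell, where 4.38% of all genes had a neighbour that fell. Among the genes that fell at least 2-fold it was 15 of 74 (20.3%). Of 969 genes that rose, 113 (11.7%) had a neighbour that rose, against 5.47% of all genes, and among those that rose at least 2-fold 22 of 115 (19.1%). The pairs with the largest joint changes, listed after their values were seen, included Adamts15 and Adamts8, the divergent pair Zic2 and Zic5 with the noncoding 2610035F20Rik between them in the order (log2 fold changes -1.27, -1.05 and -1.12), Fzd4 and Prss23 (-0.95 and -1.14), Pim2 and Slc35a2 on the X chromosome (-0.95 and -0.94), and Pou5f1 and Tcf19 (-0.76 and -0.86). Among rises they included Aldh1a1 and Anxa1 (1.32 and 1.37) and Wnt10a and Wnt6 (1.34 and 0.87). Polymerases that run past the end of a gene can add counts to the next one, and how much of the sharing comes from that was not tested.

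Most of the genes that fell at least 2-fold were also lower in steady-state RNA on day 10. In the day 10 RNA libraries, which are separate samples of the same clones, 2708 of 14470 genes were called by edgeR (18.7%), 1422 higher (9.83%) and 1286 lower (8.89%). Of the 74 genes that fell at least 2-fold in PRO-seq, 62 were tested in RNA, and 55 of these fell there (88.7%) and 0 rose, where 8.89% of the shared genes fell. Adamts15 fell by 3.94 in RNA and Magel2 by 3.39, where their log2 fold changes in PRO-seq were -2.78 and -1.66, and Tmem200a by 1.55. Of the 116 genes that rose at least 2-fold, only 52 were tested in RNA, and 21 of them rose (40.4%, against 9.76% of shared genes) and 1 fell. Over all calls, 304 of 798 rises (38.1%) and 312 of 736 falls (42.4%) had the same call in RNA. Because the assay and the day change together, their parts in any difference cannot be told apart.

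**Figure D5:**
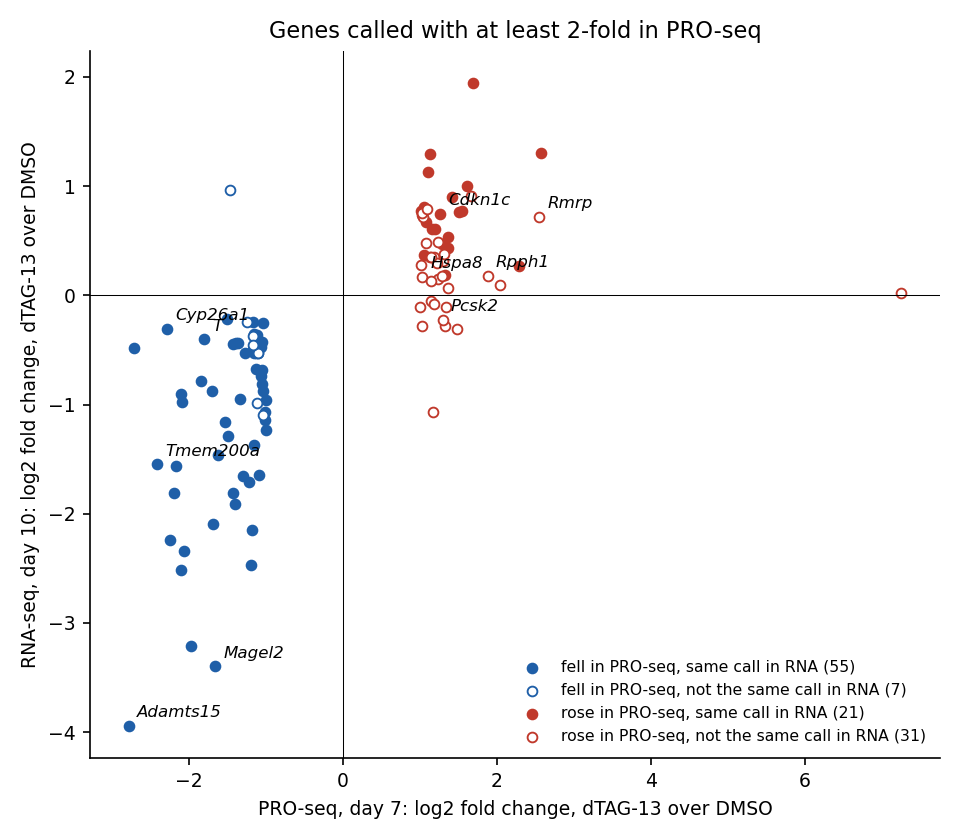
Genes called with at least 2-fold in PRO-seq and tested in RNA, with the log2 fold change in PRO-seq on day 7 on the x axis and in RNA-seq on day 10 on the y axis; filled points had the same call in RNA. Of 62 genes that fell, 55 are filled, and of 52 that rose, 21 are; the point farthest right is the pseudogene Gm5424, which had 0 counts in both DMSO libraries, so its fitted log2 value of 7.25 depends on the prior count.

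A test of the difference between both responses called 295 of 13837 genes (2.13%). DESeq2 called 142. With 1 PRO-seq library left out, the PRO-seq response rests on 1 clone, so the number of calls then cannot check this count. T fell by 1.81 in PRO-seq and by 0.40 in RNA, and the difference of -1.39 had an edgeR adjusted p of 2.05e-05. Cyp26a1 likewise fell by 2.29 and by 0.30 (difference -1.95, adjusted p = 2.29e-05), whereas Magel2 fell more in RNA (difference 1.74, adjusted p = 1.16e-04). Pcsk2 rose by 1.29 in PRO-seq and was at -0.22 in RNA (difference 1.52, adjusted p = 0.00116). Hspa8 rose by 1.03 and was at 0.17 in RNA (difference 0.87, adjusted p = 0.00393).

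Some gene lists went opposite ways in the assays. Over all tested genes, 5.90% rose and 4.66% fell in PRO-seq, and 9.83% rose and 8.89% fell in RNA. Of the 23 immediate early genes, 11 fell and 1 rose in PRO-seq, while 3 fell and 11 rose in RNA. In the test of the difference, 6 of the 23 were lower in PRO-seq (1.08% of all genes) and 0 higher (1.06% of all genes). Egr3, for example, fell by 0.55 in PRO-seq and rose by 0.52 in RNA (difference -1.05, adjusted p = 0.00108), and Nr4a1 fell by 0.40 and rose by 0.36. Cholesterol synthesis genes, which supply sterols for membranes, showed a like pattern: 8 of 20 fell and 0 rose in PRO-seq, with a median of -0.09 in C4 and -0.42 in G9, and 11 of 21 rose and 0 fell in RNA. DESeq2 called none of the 20 in PRO-seq, so these falls rest on edgeR and limma-voom alone. In the test of the difference, 7 of the 20 genes were called, all lower in PRO-seq. Of the YAP and SRF targets, 17 of 21 rose in RNA against 6 of 19 in PRO-seq, and 5 of 19 differed. By contrast the pluripotency regulators fell in both, 12 of 26 in PRO-seq and 16 of 27 in RNA, and the difference was called for 2 of 27.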

How the data were processed

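The authors deposited 1 table of PRO-seq counts per gene for the 4 day 7 libraries and 1 of RNA-seq counts for the 4 day 10 libraries. The deposited PRO-seq values are all multiples of 0.5, and up to 30.95% of a library's values are not whole; how the fractions arose is not given in the sources used here. These deposited values were handled like expected counts and rounded. The deposited RNA values are whole counts. Per the submitters' processing notes the series was handled with Bowtie2, TopHat2, Novoalign, cutadapt, bedtools, deepTools, HOMER, Juicer, DESeq and DESeq2, and with the builds mm9, hg19 and dm6; which step and version applies to these tables, and whether counting used strand, is not given in the sources used here. Chromosomes come from the tables' own gene labels.

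Genes were filtered with filterByExpr (minimum count 10), scaled by TMM and tested with edgeR 4.0.16 (quasi-likelihood, clone plus treatment, Benjamini-Hochberg, threshold 0.05), which left 1 residual degree of freedom and 29.48 prior degrees of freedom. The difference between PRO-seq and RNA was the assay-by-treatment term over 8 libraries. Same-clone libraries are the same cell line, and their deviations from the group means correlated with r of 0.72 in PRO-seq and 0.68 in RNA; so clone is the block. Levels are CPM of the TMM-scaled totals. The script was tested on simulated counts. Alternatives used DESeq2 1.42.0 and limma 3.58.1. Gene symbols were matched to RefSeq (GRCm38.p6) for 16441 of 16496 tested genes, for gene order only, and promoter windows for 12493. Gene lengths are not in the tables, so the planned split by length was not made. Clustered protocadherins share exons and are not described by gene.

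Members and gene lists were chosen with earlier results of these data known. Named genes are the 15 largest rises and falls whose average log2 CPM reached 2 and whose sign was shared by both clones, without predicted, RIKEN, pseudogene and small RNA entries, the 4 members with the smallest p in every list, and fixed genes such as Rad21, Xist and Magel2. Genes named to spell out a short count, the neighbour pairs, Aplnr, the short RNAs Vaultrc5, Terc and Rn45s, Gm5424 and those with printed promoters fall outside this rule and were chosen after their values were seen. A few genes that the rule names are not reported here.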

Additional observations from a re-analysis of the deposited data

Results flagged for a closer look

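For 31 of the genes named above, the log2 fold change in PRO-seq on day 7 differed from that in RNA on day 10 by edgeR's test of the difference (adjusted p under 0.05, Benjamini-Hochberg over 13837 genes). The values that follow are the PRO-seq change minus the RNA change. Among regulators of the epiblast, the streak and the endoderm, the nascent change was lower for Fgf5 (-0.74), Fgf8 (-0.78), Zic2 (-0.73), Sall1 (-0.79), Dnmt3b (-0.39), Pou5f1 (-0.49), T (-1.39), Eomes (-0.64), Sp5 (-1.12) and Foxa2 (-1.35). It was also lower for the retinoic acid genes Cyp26a1 (-1.95) and Dhrs3 (-0.72), for the early response genes Egr3 (-1.05), Nr4a1 (-0.75) and Myc (-0.56), and for the actin-related genes Tpm1 (-0.81) and Cnn2 (-0.64). Aplnr (-2.16), Thsd7a (-1.04), Slc35a2 (-1.05) and Psmb8 (-0.76) complete the genes with a lower nascent change.

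The nascent change was higher for Magel2 (1.74), which fell in both assays and more in RNA. It was higher as well for genes that rose in PRO-seq: Pcsk2 (1.52), Wnt10a (1.46), Pcdh19 (1.11), Hspa8 (0.87), Anxa1 (0.85), Rpph1 (1.71), Eda2r (0.42) and Sgce (0.47). Gm5424 (7.13) had 0 counts in both DMSO libraries of PRO-seq, so its value depends on the prior count. Assay and day change together here and cannot be told apart.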

How the results depend on the processing

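Without the replicate block the PRO-seq comparison called 0 genes (492 at an unadjusted p under 0.05), the RNA comparison 1 and the difference between them 0, so the calls rest, with that 1 exception, on pairing libraries by clone, which the cell lines themselves give. Leaving out any 1 PRO-seq library, in a fit without the block, called 0 genes in PRO-seq in each case (between 262 and 795 at an unadjusted p under 0.05); for the difference between assays, with the block kept, between 341 and 978 genes were called. DESeq2 called 514 genes in PRO-seq and 142 for the difference. Under the 10 other settings, PRO-seq calls numbered between 1448 and 2054. The setting named legacy dispersions is this edgeR version's default and changed nothing by construction; its opposite and the robust fit were chosen after seeing the data and called 1697 and 1696. Of 116 called genes named in the text, DESeq2 did not call 32 and gave no adjusted p for 5.

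With 1 library left out, 20 of the called genes named in the text changed sign in at least 1 fit, where the clones' different levels enter the fold. Their log2 fold changes then ranged from -6.46 to 0.077 for Aplnr, -5.11 to 0.35 for Cyp26a1, -2.12 to 0.42 for Eomes, -2.29 to 0.14 for Fgf8, -0.086 to 0.97 for Fosl1, -2.87 to 0.24 for Foxa2, -3.09 to 1.02 for Lhx1, -2.10 to 0.080 for Mx2, -0.88 to 0.18 for Myc, -0.46 to 0.048 for Nes, -0.88 to 0.061 for Nr4a1, -0.37 to 1.28 for Perp, -2.43 to 0.72 for Sp5, -3.96 to 0.31 for T, -0.35 to 1.10 for Tagln2, -0.049 to 0.62 for Tead1, -0.074 to 2.72 for Ttc23l, -1.10 to 0.15 for Vldlr, -0.0064 to 1.83 for Wnt6 and -0.83 to 0.048 for Zfp36. No called gene named in the text changed sign under any other setting. Of the named genes that did not pass the test, Ezh2, Jpx, Nipbl, Rlim and Tsix also changed sign with 1 library left out. The level given for 3 counts covers counting error only, whereas the standard errors also hold the spread between clones, and with 2 clones the spread between cultures of 1 clone is unknown.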
